A study of Rattus norvegicus with 16 samples.

Results

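Mitochondrial ribosomal protein genes were followed in cells sorted from the rat carotid body after 3 days of low oxygen. The members were all genes whose array symbol starts with Mrpl or Mrps and a number and that had a probe annotated to that gene alone. There were 72 such genes among 18166 genes with a probe of their own, and each had exactly 1 probe, so no choice between probes was needed. Of these, 44 are named Mrpl and 26 Mrps, and the other 2 (Mrpl41l1 and Mrps21l) are like genes, named for their similarity to Mrpl41 and Mrps21. By the place of the protein, 46 belong to the large subunit and 24 to the small one, because the proteins of Mrps18a and Mrps30 sit in the large subunit.

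The study measured total RNA on Affymetrix arrays in 4 groups of 4 samples each, all from Wistar rats aged 9 to 11 weeks. The 4 groups were glomus cells of hypoxic rats, glomus cells of normoxic rats, neuroblasts of hypoxic rats and neuroblasts of normoxic rats. Hypoxic rats lived in a low-oxygen chamber for 3 days, at an oxygen level that the labels do not give, and normoxic rats breathed ambient air. Carotid bodies of both sides were mixed and dispersed with enzymes, and a flow sorter split the cells by the surface epitope HNK-1: HNK-1+ cells were taken as neuroblasts and HNK-1- cells as glomus cells, so the glomus group is whatever the antibody did not stain. Each sample supplied 500 pg of RNA for biotinylated cDNA. The labels do not say whether samples came from separate animals, so the tests weigh differences only against the scatter among these arrays, which may be technical. They give no hybridisation batch either, so a batch that followed the oxygen condition cannot be told apart from it.

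The mitochondrial ribosome makes the small set of respiratory chain and ATP synthase proteins that mitochondrial DNA encodes. All of its own proteins are encoded in the nucleus, made in the cytosol and imported: the small subunit reads the messenger RNA, and the large subunit joins the amino acids and lets the new chain out through an exit tunnel. Some of its proteins descend from those of the bacterial ribosome and others were added in mitochondria. The carotid body is the arterial oxygen sensor that drives breathing, its glomus cells sense oxygen through their mitochondria, and neuroblasts are immature cells that can mature into glomus cells when oxygen is low.

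Values are the deposited log2 signals, so a difference of 1 is a doubling, and a gene was said to rise or fall when its Benjamini-Hochberg adjusted p in limma, over all 30429 probes, was under 0.05. Lists of markers were checked against the sort. The 7 measured neuroblast markers summed, on the linear scale, to 3070 to 4416 in normoxic neuroblasts, against 1229 to 1356 in normoxic glomus cells. The 8 glomus cell markers summed to 13554 to 16150 in normoxic neuroblasts and 22203 to 24689 in normoxic glomus cells, so the glomus cell signal was high in both populations. In hypoxic neuroblasts the neuroblast markers summed to only 1120 to 1690, and 6 of the 7 had fallen relative to normoxic neuroblasts, including B3gat1, which encodes an enzyme that makes the HNK-1 epitope. The first hypoxic neuroblast array stood apart: its values correlated with those of its group at a mean r of 0.914, against 0.949 to 0.982 for the other 15 arrays with theirs, and its probes had the smallest spread. Results that rest on it are given with and without it.

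On every hypoxic array the median member was brighter than on any normoxic array of the same population. The median signal of the 72 genes was 7.93, 7.67, 7.95 and 7.70 in hypoxic glomus cells, against 6.83, 7.16, 6.87 and 6.98 in normoxic glomus cells. In neuroblasts it was 7.28, 7.52, 8.0 and 8.11 under hypoxia, against 6.45, 6.75, 7.14 and 6.71 under normoxia. The groups did not overlap in either population, although the first hypoxic neuroblast array, at 7.28, lay just above the brightest normoxic one. Hypoxic arrays were also slightly brighter over all probes, whose median averaged 4.72 in hypoxic and 4.51 in normoxic glomus cells and 4.80 in hypoxic and 4.52 in normoxic neuroblasts. Taken relative to that median, the members stood 3.09 ± 0.15 above it in hypoxic glomus cells and 2.45 ± 0.19 above it in normoxic ones (SD, n = 4 each). In neuroblasts they stood 2.93 ± 0.48 above it under hypoxia and 2.25 ± 0.37 above it under normoxia (SD, n = 4 each), where the first hypoxic array, at 2.34, fell inside the normoxic range of 1.84 to 2.74. In sorted bulk samples a different mix of cells and a different amount of RNA per cell cannot be told apart.

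**Figure D1:**
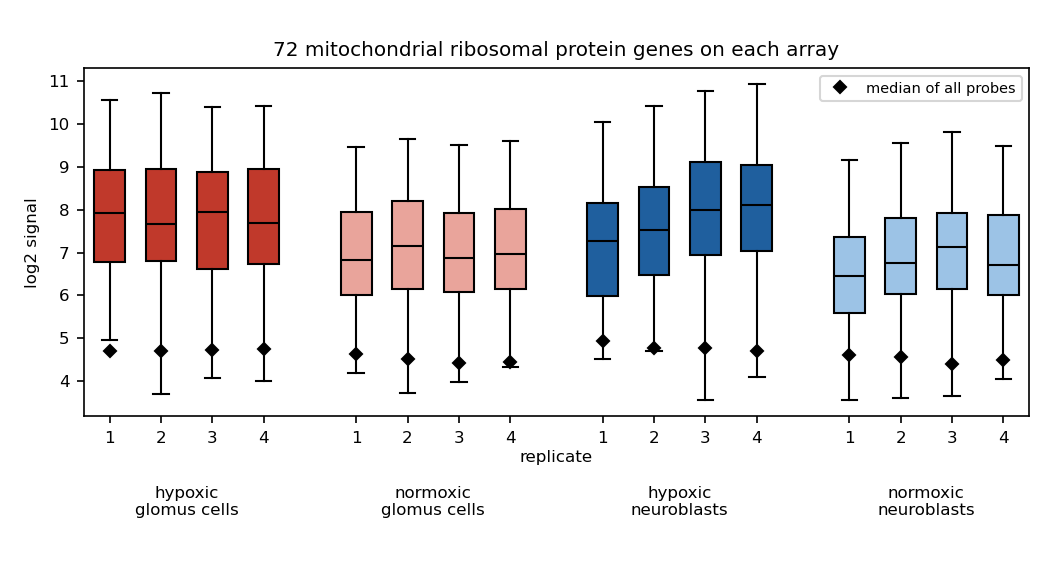
Log2 signal (y axis) of the 72 mitochondrial ribosomal protein genes on each of the 16 arrays (x axis, replicate number within each group), with the median of all 30429 probes as a black diamond. The members' medians lie between 7.67 and 7.95 in hypoxic glomus cells and between 6.83 and 7.16 in normoxic ones, while the diamonds stay between 4.40 and 4.94.

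In glomus cells 43 of the 72 genes rose after 3 days of hypoxia and none fell, nor was any lower at an unadjusted limma p under 0.05. The share of all probes that were higher in the same fit was 9.37%, and 9.5% were lower. The difference was positive for 67 of 72 members, with a median of 0.84 and a range of -0.81 to 1.64, beside a median of 0.17 over all probes. In 53 members all 4 hypoxic arrays lay above all 4 normoxic arrays, as in 15.2% of all probes, and in no member was the order the other way round, as it was in 11.3%. A total of 26 members were higher by more than 2-fold, a size that was not counted over all probes. Members are bright probes, with 71 of 72 above the median probe. A separate fit took only the 15213 probes brighter than the median probe and adjusted p over those alone. In it 2342 (15.4%) rose and 3122 fell in glomus cells, and 3156 (20.7%) rose and 4224 fell in neuroblasts. Those shares are not from the main fit.

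Mrpl23 had the largest rise of the members in glomus cells. Mrpl23, whose protein sits at the rim of the exit tunnel, had signals of 9.74, 9.63, 9.72 and 9.89 in hypoxic glomus cells, against 7.91, 8.50, 8.10 and 7.91 in normoxic glomus cells. The groups were more than a unit apart, and the difference of 1.64 ± 0.22 (SE) was 3.12-fold (limma adjusted p = 7.28e-05). Mrpl32, whose protein is trimmed by a mitochondrial protease before it joins the large subunit, had 6.58, 6.25, 6.46 and 6.47 in hypoxic glomus cells, against 4.91, 5.12, 4.69 and 4.77 in normoxic ones. It stood well clear of its normoxic range on every hypoxic array, by 1.57 ± 0.17 on average (SE, limma adjusted p = 1.75e-05). Mrpl22, another protein of the tunnel wall, rose by 1.49 ± 0.26, and Mrpl19, which forms part of the bridge to the small subunit, rose by 1.37 ± 0.25 (SE, limma adjusted p = 0.000623 and 0.000822). The like gene Mrpl41l1 rose by 1.60 ± 0.20 (SE, adjusted p = 5.45e-05), more than its namesake Mrpl41, a mitochondrial addition to the large subunit, at 0.97 ± 0.20 (SE, adjusted p = 0.00265); that pair was not tested against each other.

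Among small subunit genes Mrps18c moved furthest. Its signals were 10.01, 9.86, 9.88 and 10 in hypoxic glomus cells, against 8.11, 8.51, 8.25 and 8.44 in normoxic glomus cells, a gap of more than a unit between the nearest arrays. The difference was 1.61 ± 0.18 (SE, 3.05-fold, limma adjusted p = 2.01e-05). Mrps21 rose by 1.54 ± 0.23 and Mrps24 by 1.46 ± 0.24 (SE, limma adjusted p = 0.000156 and 0.000464). Mrps24 is the counterpart of a bacterial protein that lies where the messenger RNA enters the small subunit. Mrps16 had 8.23, 7.47, 7.62 and 7.97 in hypoxic glomus cells, against 6.30, 6.70, 6.44 and 6.20 in normoxic ones, and Mrps14 rose by 1.30 ± 0.19 (SE, limma adjusted p = 0.000171). For Mrps16 the hypoxic arrays were all higher and the rise was 1.41 ± 0.22 (SE, limma adjusted p = 0.000266).

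**Figure D2:**
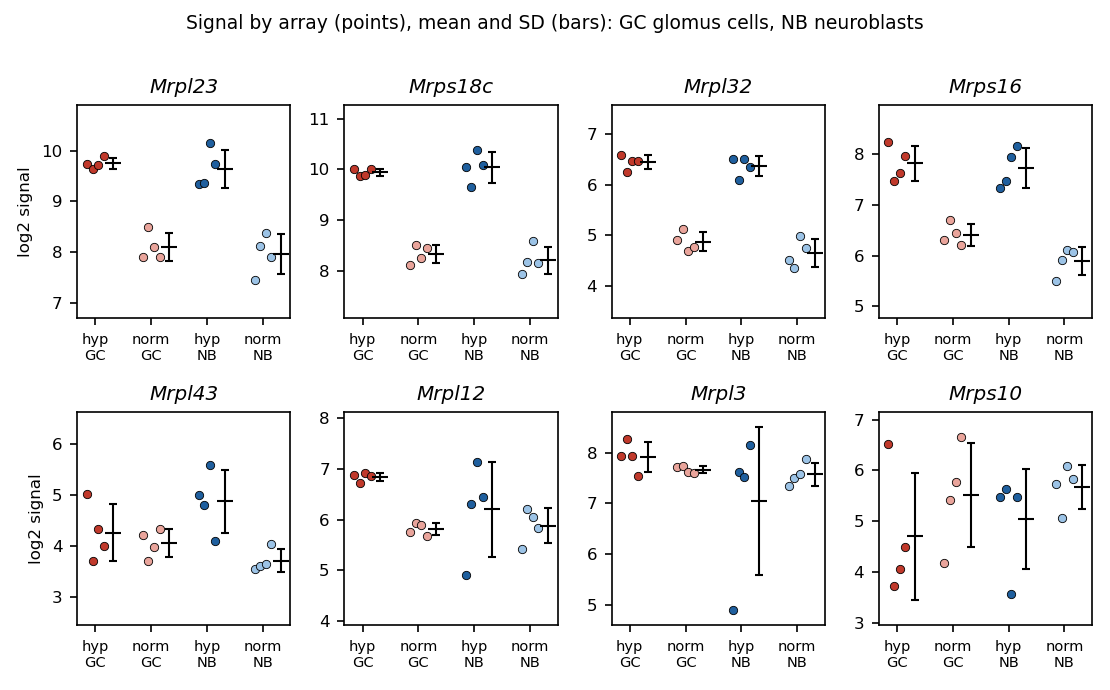
Log2 signal (y axis) by array for 8 members in the 4 groups (x axis: hypoxic and normoxic glomus cells, then hypoxic and normoxic neuroblasts), with the mean and SD of each group as a bar and an equal span of 4.2 units in every panel. Mrpl23, Mrps18c, Mrpl32 and Mrps16 separate fully by oxygen in both populations, Mrpl12 separates in glomus cells but has 1 low hypoxic neuroblast array at 4.91, Mrpl3 has 1 at 4.89, and the groups of Mrps10 overlap.

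In neuroblasts 45 of the 72 genes rose under hypoxia and none fell, nor was any lower at an unadjusted limma p under 0.05, while 18.4% of all probes were higher and 13.7% lower. The median difference was 0.92 (range -0.64 to 1.83), beside 0.25 over all probes, and it was positive for 67 of 72 members. In 37 members the hypoxic arrays all lay above the normoxic ones, beside 16.3% of all probes, and in none below, beside 11.6%. Rises of more than 2-fold were seen in 31 members, again without a count over all probes.

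The leading genes in neuroblasts were largely those of glomus cells. Mrps18c had 10.04, 9.65, 10.39 and 10.08 in hypoxic neuroblasts, against 7.94, 8.17, 8.58 and 8.15 in normoxic neuroblasts. Every hypoxic value was at least a unit above the highest normoxic one, and the rise was 1.83 ± 0.18 (SE, 3.56-fold, limma adjusted p = 1.98e-06). Mrps16 had 7.34, 7.47, 7.94 and 8.16 in hypoxic neuroblasts, against 5.50, 5.91, 6.11 and 6.07 in normoxic ones, and rose by 1.83 ± 0.22 (SE, adjusted p = 1.25e-05). Mrpl32 had 6.51, 6.09, 6.51 and 6.36 under hypoxia, against 4.51, 4.36, 4.99 and 4.76 under normoxia, and rose by 1.71 ± 0.17 (SE, adjusted p = 2.39e-06). Both genes therefore separated fully by oxygen. Mrpl23 rose by 1.69 ± 0.22 and Mrps14 by 1.67 ± 0.19 (SE, limma adjusted p = 2.45e-05 and 8.58e-06). Mrpl35 rose by 1.56 ± 0.19, Mrpl30 by 1.59 ± 0.24 and Mrpl42, a mitochondrial addition, by 1.42 ± 0.24 (SE, limma adjusted p = 1.45e-05, 0.000114 and 0.000286). Mrps21 and Mrps24 rose by 1.49 ± 0.23 and 1.44 ± 0.24 (SE, limma adjusted p = 0.000104 and 0.000279), close to their rises in glomus cells. By symbol, RefSeq lists pseudogenes or like genes of 23 members, among them Mrpl23, Mrpl30, Mrpl32, Mrpl42, Mrps16, Mrps18c and Mrps21, so part of those signals may come from a copy. Copies under other names were not searched for, so the other 49 members may have copies too. Of these 23 members 14 rose in both populations, and of the other 49 members 25 did. Those 49 include the like genes Mrpl41l1 and Mrps21l, which are themselves named as copies and rose in both populations.

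The first hypoxic neuroblast array was low for many members. It gave the lowest of all 16 signals for 13 members, a count that was taken, like the choice of Mrpl3 as an example, after its low values had been seen. Mrpl3, at the heart of the large subunit, read 4.89, 7.62, 7.51 and 8.16 in hypoxic neuroblasts, against 7.34, 7.49, 7.57 and 7.88 in normoxic neuroblasts. Mrps7, of the head of the small subunit, read 5.52, 6.92, 7.41 and 8.09 under hypoxia, against 6.43, 6.90, 6.91 and 6.89 under normoxia. In both genes the first hypoxic array was far below all others and the other 3 lay within or above the normoxic range. Without that array 61 members rose in neuroblasts (14.7% of all probes) with a median difference of 1.12, and since the populations share 1 estimate of the spread the count in glomus cells became 51 (12.6% of all probes). Mrps7 then rose by 0.69 ± 0.23 (SE, limma adjusted p = 0.0330), while Mrpl3 still did not pass, at 0.19 ± 0.20 (SE, adjusted p = 0.483).

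The scale of the arrays set part of these counts. Centring each array on its median brought the median of all probes to -0.045 in glomus cells and -0.03 in neuroblasts, where it was 0.17 and 0.25 as deposited. After it 26 members rose in glomus cells and 32 in neuroblasts (4.5% and 6% of all probes), with median differences of 0.63 and 0.64, and none fell. After quantile normalization 45 rose in glomus cells and 51 in neuroblasts (7.28% and 10.8% of all probes). Over all probes 2852 rose and 2892 fell in glomus cells as deposited, against 1370 and 3783 after centring. In neuroblasts 5596 rose and 4159 fell as deposited, against 1826 and 5464 after centring.

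**Figure D3:**
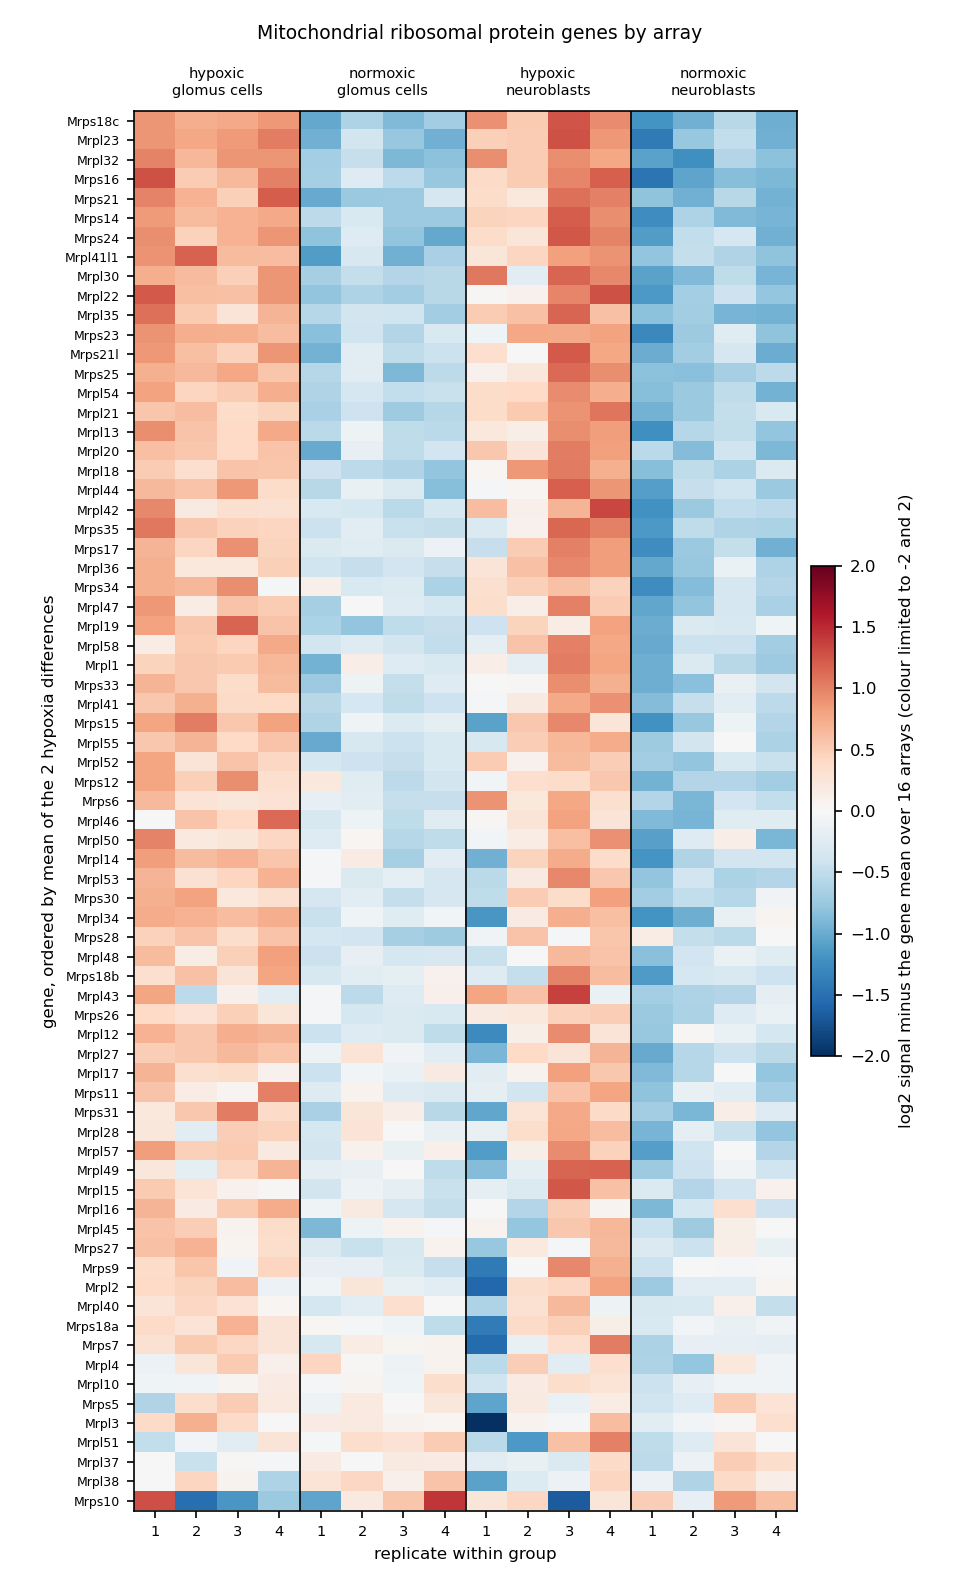
Each row is 1 of the 72 genes, ordered by the mean of its differences in both populations, and each column 1 of the 16 arrays, grouped as hypoxic glomus cells, normoxic glomus cells, hypoxic neuroblasts and normoxic neuroblasts. Colour is the log2 signal minus the gene's mean over all arrays, limited to -2 and 2; most rows are high on the hypoxic arrays, and the first hypoxic neuroblast array is low in the rows of genes such as Mrpl3 and Mrps7.

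Largely the same genes rose in both populations, in comparisons that share no array. The comparisons were not fully independent, because their calls rest on a shared estimate of the spread. Both populations were sorted from dispersed carotid bodies, and the labels do not say whether they came from the same animals. The overlap therefore cannot be taken as independent replication. A total of 39 members rose in both, which is 90.7% of the 43 in glomus cells and 86.7% of the 45 in neuroblasts. Over all probes, 2028 rose in both, or 71.1% of those in glomus cells and 36.2% of those in neuroblasts. In 34 members the hypoxic arrays lay fully above the normoxic ones in both populations, as in 6.69% of all probes. The differences in the populations had a Pearson r of 0.81 across the 72 members and the same value across all 30429 probes, so that likeness was not particular to the members.

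The genes that rose in both populations came from both subunits. Of the large subunit 23 of 46 genes rose in both, of the small subunit 14 of 24, and both like genes did. Of the 43 genes with a bacterial counterpart 22 rose in both, and of the 27 found only in mitochondria 15 did. Median differences of the large subunit were 0.83 in glomus cells and 0.87 in neuroblasts. Those of the small subunit were 0.86 and 1.00. Genes with a bacterial counterpart had 0.86 and 0.86, and those found only in mitochondria 0.82 and 0.91. No test was made between these classes.

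Several members are known for work at particular sites of the ribosome. Mrps12, of the decoding centre, had 8.60, 8.29, 8.75 and 8.16 in hypoxic glomus cells, against 8.03, 7.57, 7.30 and 7.45 in normoxic ones, and 7.77, 8.16, 8.19 and 8.36 in hypoxic neuroblasts, against 6.87, 7.24, 7.24 and 7.12 in normoxic ones. No hypoxic value of Mrps12 lay within its normoxic range, and it rose by 0.86 ± 0.19 in glomus cells and 1.00 ± 0.19 in neuroblasts (SE, limma adjusted p = 0.00440 and 0.000892). Mrpl1, of the stalk beside the exit site for transfer RNA, rose by 0.89 ± 0.26 and 1.07 ± 0.26 (SE, adjusted p = 0.0233 and 0.00525). In glomus cells Mrpl1 no longer passed without normoxic replicate 1 or hypoxic replicate 4 (adjusted p = 0.0765 and 0.0593). After centring it passed in neither population (adjusted p = 0.130 in glomus cells and 0.0553 in neuroblasts). Mrpl44, which resembles RNase III, rose by 1.07 ± 0.26 and 1.20 ± 0.26 (SE, adjusted p = 0.00736 and 0.00238). Mrpl41, described above for glomus cells, rose by 0.97 ± 0.20 in neuroblasts (SE, adjusted p = 0.00159). Mrps30, named for the small subunit but located in the large one, rose by 0.85 ± 0.24 and 0.76 ± 0.24 (SE, adjusted p = 0.0186 and 0.0235). Mrps30 lost its call in glomus cells without normoxic replicate 3, hypoxic replicate 1 or hypoxic replicate 2 (adjusted p between 0.0566 and 0.0597). It lost its call in neuroblasts without normoxic replicate 1 or 3 or hypoxic replicate 2 or 4 (adjusted p between 0.0558 and 0.0658), or with only the neuroblast arrays in the fit (adjusted p = 0.0810). After centring Mrps30 passed in neither population (adjusted p = 0.128 in glomus cells and 0.231 in neuroblasts). Mrpl58, which frees stalled ribosomes, rose by 0.84 ± 0.22 in glomus cells and 1.18 ± 0.22 in neuroblasts (SE, adjusted p = 0.0136 and 0.000766); it was picked for its role after the values were seen.

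The Mrps18 genes, which encode proteins related to a single bacterial protein, differed in whether they passed. Mrps18c rose in both populations, as given above. Mrps18b had 6.68, 6.93, 6.61 and 7.13 in hypoxic glomus cells, against 6.03, 6.12, 6.17 and 6.43 in normoxic ones. Its hypoxic glomus arrays were all the higher, yet the difference of 0.65 ± 0.28 did not pass, and in neuroblasts the difference of 0.77 ± 0.28 did (SE, limma adjusted p = 0.117 and 0.0446). That call was close to the threshold: it was lost without any 1 of 13 of the 16 arrays (adjusted p between 0.0505 and 0.142). Mrps18a, whose protein sits in the large subunit, had 9.30, 9.18, 9.60 and 9.17 in hypoxic glomus cells, against 8.94, 8.88, 8.83 and 8.41 in normoxic ones. Those groups did not overlap either, and the difference of 0.55 ± 0.30 did not pass (SE, adjusted p = 0.224). It did pass without the first hypoxic neuroblast array, with only the glomus arrays in the fit and with array weights (adjusted p = 0.0180, 0.0372 and 0.0208). In neuroblasts Mrps18a read 7.51, 9.29, 9.39 and 9.03 under hypoxia, against 8.60, 8.85, 8.76 and 8.84 under normoxia, a difference of 0.04 ± 0.30 (SE, adjusted p = 0.918), or 0.47 ± 0.17 without the first hypoxic array (SE, adjusted p = 0.0484). The 3 genes were not tested against each other.

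Of the 72 members, 4 rose in glomus cells alone and 6 in neuroblasts alone. Over all 30429 probes, 824 rose in glomus cells alone and 3568 in neuroblasts alone. Mrpl12, Mrpl48, Mrps15 and Mrps28 passed in glomus cells alone, and Mrpl17, Mrpl27, Mrpl28, Mrpl43, Mrpl50 and Mrps18b in neuroblasts alone. Mrpl12, the stalk protein that also binds the mitochondrial RNA polymerase, had 6.88, 6.73, 6.91 and 6.86 in hypoxic glomus cells, against 5.76, 5.93, 5.90 and 5.67 in normoxic ones. In neuroblasts it had 4.91, 6.31, 7.13 and 6.45 under hypoxia, against 5.43, 6.21, 6.06 and 5.83 under normoxia. Glomus arrays were thus fully apart, with a rise of 1.03 ± 0.32, while the neuroblast groups overlapped at 0.32 ± 0.32 (SE, limma adjusted p = 0.0309 and 0.437). The glomus call was lost without any 1 of the 8 glomus arrays (adjusted p between 0.0507 and 0.0800). Without the first hypoxic neuroblast array all 4 genes of the glomus set rose in neuroblasts too: Mrpl12 by 0.75 ± 0.21, Mrpl48 by 0.81 ± 0.21, Mrps15 by 1.24 ± 0.23 and Mrps28 by 0.58 ± 0.20 (SE, adjusted p = 0.0134, 0.00801, 0.000933 and 0.0420).

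The test of the difference itself found no member with an unequal response. For the response of neuroblasts to hypoxia minus the response of glomus cells, 0 of 72 members passed, beside 0.0789% of all probes. At an unadjusted p under 0.05 there was 1, Mrpl43, a mitochondrial addition to the large subunit. Mrpl43 was also the dimmest member, with a mean of 4.23 over all 16 arrays, and the only member not above the median probe. Mrpl43 had 5.01, 4.81, 5.59 and 4.10 in hypoxic neuroblasts, against 3.55, 3.61, 3.64 and 4.04 in normoxic neuroblasts. In glomus cells it had 5.02, 3.70, 4.33 and 4.00 under hypoxia, against 4.21, 3.71, 3.97 and 4.33 under normoxia. The neuroblast groups were apart and the glomus groups overlapped, and the responses differed by 0.96 ± 0.41 (SE, limma adjusted p = 0.726). Mrpl28 had a difference of responses of 0.69 ± 0.33 and Mrpl19 of -0.71 ± 0.35 (SE, adjusted p = 0.752 and 0.769). The median over the members was 0.12, or 0.26 without the first hypoxic neuroblast array and -0.06 without the third. Standard errors of this difference ran from 0.23 to 0.83 with a median of 0.34, so unequal responses of modest size were not detectable with 4 arrays a group.

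**Figure D4:**
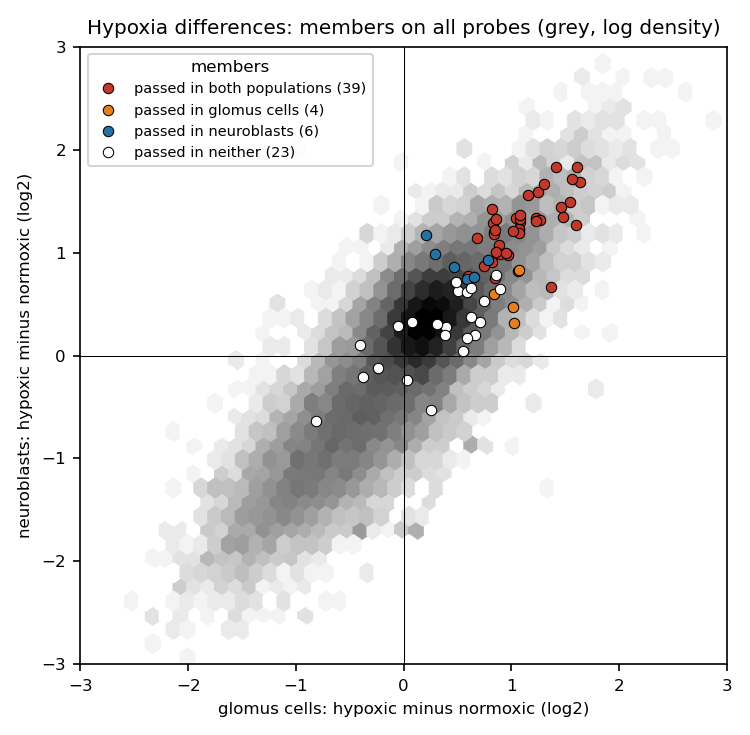
Hypoxic minus normoxic log2 difference in glomus cells (x axis) and in the neuroblast groups (y axis) for the 72 members, coloured by where they passed, over all 30429 probes as a grey log-scaled density. The 39 members that passed in both populations lie in the upper right, and the 23 that passed in neither reach down to Mrps10, at -0.81 in glomus cells and -0.64 in neuroblasts.

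Both subunits and both origins were present among the 23 members that passed in neither population. They held 16 large and 7 small subunit genes, 14 with a bacterial counterpart and 9 without. The count rests on the first hypoxic neuroblast array: without it 12 of the 23 rose in neuroblasts and 6 in glomus cells, and 10 rose in neither. Mrps10 was the member with the most negative difference in both populations, and also the most scattered. It had 6.52, 3.72, 4.06 and 4.49 in hypoxic glomus cells, against 4.18, 5.42, 5.78 and 6.66 in normoxic ones, and 5.48, 5.64, 3.56 and 5.47 in hypoxic neuroblasts, against 5.73, 5.07, 6.08 and 5.83 in normoxic ones. All 4 groups of Mrps10 overlapped, and the differences were -0.81 ± 0.59 and -0.64 ± 0.59 (SE, limma adjusted p = 0.359 and 0.394). Mrpl37 and Mrpl38 also had negative differences in both populations, of -0.24 ± 0.21 and -0.12 ± 0.21 for Mrpl37 and -0.37 ± 0.29 and -0.21 ± 0.29 for Mrpl38 (SE, adjusted p between 0.394 and 0.669). Without the first hypoxic array the neuroblast difference of Mrpl38 turned to 0.06 ± 0.26, and that of Mrpl37 was -0.07 ± 0.23 (SE, adjusted p = 0.886 and 0.844). Mrpl10, which anchors the stalk that Mrpl12 forms, had -0.05 ± 0.18 in glomus cells and 0.28 ± 0.18 in neuroblasts (SE, adjusted p = 0.861 and 0.217). Without the first hypoxic neuroblast array Mrpl10 rose in neuroblasts, by 0.45 ± 0.15 (SE, adjusted p = 0.0392). Mrpl45, at the mouth of the exit tunnel, had 0.62 ± 0.29 and 0.38 ± 0.29 (SE, adjusted p = 0.154 and 0.314). Mrpl37, Mrpl38, Mrpl10 and Mrpl45 were chosen after their values were seen. The smallest member difference that passed was 0.60 in glomus cells and 0.67 in neuroblasts.

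Between neuroblasts and glomus cells at the same oxygen no member passed. In normoxia 0 of 72 members passed for neuroblasts minus glomus cells, beside 1.82% of all probes in either direction, and 6 had an unadjusted limma p under 0.05. The median difference was -0.22, beside -0.005 over all probes, and 9 of 72 differences were positive. Without normoxic neuroblast replicate 1, the array that was lowest of the 16 for 42 members, the median was -0.15, and it was -0.32 without normoxic neuroblast replicate 3. The members with the smallest p were Mrps12 at -0.47 ± 0.19, Mrps17 at -0.61 ± 0.26 and Mrpl27, a protein near the site where peptide bonds form, at -0.61 ± 0.26 (SE, limma adjusted p = 0.399, 0.410 and 0.434). Mrps17 had 5.91, 6.41, 6.67 and 6.18 in normoxic neuroblasts, against 6.85, 6.90, 6.85 and 7.03 in normoxic glomus cells. Its groups did not overlap, as in 7 members in this direction, beside 4.03% of all probes. In hypoxia 0 of 72 passed (0.283% of all probes) and 1 had an unadjusted p under 0.05, Mrpl19, at -0.53 ± 0.25 (SE, adjusted p = 0.440). Next in p were Mrpl43, at 0.61 ± 0.29, and Mrpl16, at -0.54 ± 0.26 (SE, adjusted p = 0.451 and 0.455). The median was -0.14, beside 0.04 over all probes. Leaving out 1 hypoxic neuroblast array at a time gave 0.03 without replicate 1, -0.01 without replicate 2, -0.26 without replicate 3 and -0.24 without replicate 4. Quantile normalization gave a median near 0 (-0.0027) and centring one of -0.21. Among the 10 members named for their place in the ribosome, the normoxic differences ran from -0.47 for Mrps12 to 0.07 for Mrpl12. Their hypoxic differences ran from -0.65 for Mrpl12, -0.51 for Mrps18a and -0.46 for Mrps7 to 0.10 for Mrps18c.

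Genes named otherwise that also belong to the mitochondrial ribosome were mixed. Chchd1, a small subunit protein, averaged 9.79 in hypoxic and 8.20 in normoxic glomus cells and 9.99 in hypoxic and 7.83 in normoxic neuroblasts, and rose by 1.59 ± 0.20 and 2.15 ± 0.20 (SE, limma adjusted p = 4.85e-05 and 1.15e-06). Gadd45gip1, of the large subunit, rose by 1.06 ± 0.21 and 1.60 ± 0.21 (SE, adjusted p = 0.00196 and 3.11e-05). Ptcd3, a small subunit protein that binds RNA, had -0.59 ± 0.26 in glomus cells, which did not pass, and fell by 1.43 in neuroblasts (SE 0.26, adjusted p = 0.000629). Dap3 and Aurkaip1 passed in neither. So 2 of 5 rose in each population (40%), beside 9.37% of all probes in glomus cells and 18.4% in neuroblasts.

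Of 12 mitochondrial translation factors 1 rose in glomus cells and 3 in neuroblasts, and none fell. These are 8.33% and 25% of the list, beside the 9.37% and 18.4% of all probes that rose. Their medians were 0.13 and 0.06 as deposited and -0.09 and -0.23 after centring. The release factor gene Mtrf1l rose by 0.98 ± 0.28 and 1.07 ± 0.28, and Pdf, the deformylase that trims new chains, and the elongation factor gene Guf1 rose in neuroblasts by 0.72 ± 0.19 and 0.50 ± 0.18 (SE, adjusted p between 0.00742 and 0.0393). Tufm, the factor that delivers transfer RNA, had 0.31 ± 0.30 and 0.07 ± 0.30 (SE, adjusted p = 0.50 and 0.861).

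Among 15 mitochondrial aminoacyl-tRNA synthetases, which charge transfer RNA, 1 rose and 3 fell in glomus cells and 1 rose and 4 fell in neuroblasts. Rises were 6.67% of the list in each population, beside 9.37% and 18.4% of all probes, of which 9.5% and 13.7% fell. Medians were -0.08 and -0.38. Yars2, for tyrosine, rose by 1.62 ± 0.22 and 1.74 ± 0.22 (SE, limma adjusted p = 7.33e-05 and 1.63e-05). Vars2, for valine, had differences of -1.01 ± 0.21 and -1.35 ± 0.21, and Lars2, for leucine, of -0.66 ± 0.15 and -0.73 ± 0.15, and both fell in both populations (SE, adjusted p between 0.000131 and 0.00524). The list thus held genes that passed in either direction.

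Assembly factors of the mitochondrial ribosome and enzymes that modify its RNA mostly did not pass, like most probes. Of 25 genes 3 rose and 2 fell in glomus cells and 4 rose and 1 fell in neuroblasts. Rises were 12% and 16% of the list, beside 9.37% and 18.4% of all probes, of which 9.5% and 13.7% fell. Medians were 0.01 and -0.06 as deposited and -0.21 and -0.34 after centring. Malsu1, which keeps the subunits apart while they are built, rose by 1.18 ± 0.22 and 1.71 ± 0.22, and Mterf3, which takes part in transcription and large subunit assembly, by 1.05 ± 0.23 and 1.15 ± 0.23 (SE, adjusted p between 2.84e-05 and 0.00370). Mettl15, a methyltransferase of the small subunit RNA, had -1.08 ± 0.26 in glomus cells, where it fell, and -0.35 ± 0.26 in neuroblasts, where it did not pass (SE, adjusted p = 0.00631 and 0.284).

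Of 14 genes for mitochondrial DNA, transcription and RNA handling 5 rose and 2 fell in glomus cells, and 5 rose and 3 fell in neuroblasts. Rises were 35.7% of the list in each population, beside 9.37% and 18.4% of all probes, of which 9.5% and 13.7% fell. Medians were 0.46 and 0.37. Slirp, which steadies mitochondrial messenger RNA, rose by 1.04 ± 0.19 and 1.83 ± 0.19, and Ssbp1, the DNA strand binding protein of mitochondria, by 0.86 ± 0.20 and 1.04 ± 0.20 (SE, limma adjusted p between 3.53e-06 and 0.00487). Lrpprc, the partner of Slirp, had 0.03 ± 0.18 and -0.01 ± 0.18, and Tfam, which packs mitochondrial DNA, 0.07 ± 0.22 and 0.27 ± 0.22 (SE, adjusted p between 0.347 and 0.960). The partners Slirp and Lrpprc therefore differed in whether they passed.

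Regulators of nuclear genes for mitochondria moved in both directions. Of 12 genes 1 rose and 3 fell in glomus cells and 1 rose and 4 fell in neuroblasts, with medians of -0.23 and -0.40. Rises were 8.33% of the list in each population, beside 9.37% and 18.4% of all probes, of which 9.5% and 13.7% fell. The subunits of the ETS factor GABP were split: Gabpb1 rose by 1.31 ± 0.29 and 1.02 ± 0.29, while Gabpa, the subunit that binds DNA, had -0.64 ± 0.21 and -1.04 ± 0.21, and Gabpb2 had -1.22 ± 0.25 and -1.38 ± 0.25, and both fell in both populations (SE, adjusted p between 0.000597 and 0.0456). Nrf1, the nuclear respiratory factor, had -0.34 ± 0.23 in glomus cells and fell in neuroblasts, at -0.78 ± 0.23 (SE, adjusted p = 0.326 and 0.0155). After centring, Gabpb1 no longer counted as a rise in neuroblasts.

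Cytosolic ribosomal protein genes were the nearest other family. Of 55 measured genes 22 rose and 1 fell in glomus cells, and 25 rose and 2 fell in neuroblasts, with medians of 0.47 and 0.41. Rises were 40% and 45.5% of the list, beside 9.37% and 18.4% of all probes. Rps16 rose by 1.64 ± 0.19 and 1.76 ± 0.19 and Rps29 by 1.39 ± 0.21 and 1.61 ± 0.21 (SE, limma adjusted p between 5.12e-06 and 0.000183). After centring, 11 and 12 of them rose, with medians of 0.26 and 0.13. The difference between the families was not tested.

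**Figure D5:**
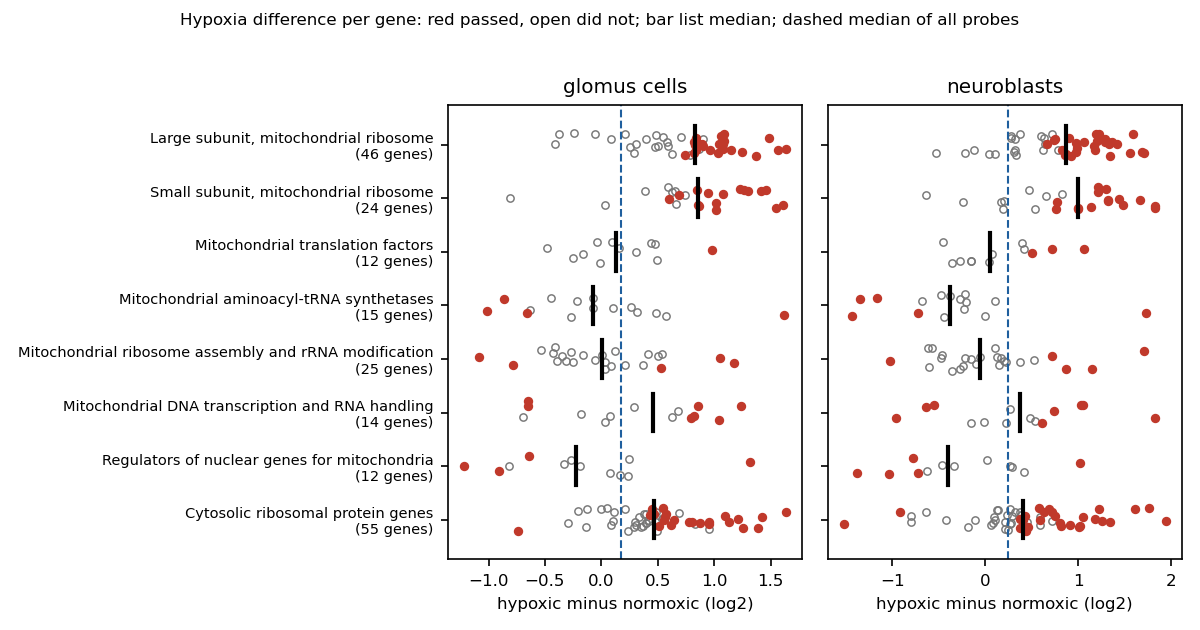
Hypoxic minus normoxic log2 difference (x axis) of each gene in 8 lists (rows) in glomus cells on the left and neuroblasts on the right, with genes that passed in red, genes that did not as open circles, the list median as a black bar and the median of all probes as a dashed line. The bars of the large and small mitochondrial subunits lie at 0.83 to 1.00, those of the cytosolic ribosomal proteins at 0.47 and 0.41, and those of the tRNA synthetases at -0.08 and -0.38.

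Most markers of dividing cells were also higher under hypoxia. Over all probes 9.37% rose and 9.5% fell in glomus cells, and 18.4% rose and 13.7% fell in neuroblasts. Of 8 proliferation markers 6 rose in glomus cells and 7 in neuroblasts, with medians of 1.61 and 2.75. Their summed linear signal was 1541 to 1938 in hypoxic and 378 to 457 in normoxic glomus cells, and 2784 to 3329 in hypoxic and 336 to 411 in normoxic neuroblasts. Of 6 endothelial markers 2 rose in each population, with sums of 1284 to 1700 in hypoxic and 443 to 756 in normoxic glomus cells and 232 to 369 in hypoxic and 99.8 to 171 in normoxic neuroblasts. Of 10 macrophage markers 3 rose in glomus cells, with sums of 859 to 1348 in hypoxic and 340 to 1563 in normoxic glomus cells, and none passed in neuroblasts, with sums of 236 to 363 in hypoxic and 169 to 247 in normoxic ones. Of 6 markers of type II and glial cells 1 rose in glomus cells and 2 in neuroblasts, with sums of 242 to 406 in hypoxic and 129 to 259 in normoxic glomus cells and 739 to 1127 in hypoxic and 329 to 539 in normoxic neuroblasts. Of 5 markers of pericytes and smooth muscle 1 fell in each population, with sums of 3262 to 4109 in hypoxic and 6656 to 7467 in normoxic glomus cells and 2441 to 4119 in hypoxic and 5333 to 6078 in normoxic neuroblasts. Of the 8 glomus cell markers 1 rose and 3 fell in glomus cells, with sums of 15672 to 19127 under hypoxia and 22203 to 24689 under normoxia. In neuroblasts 3 of them rose and 3 fell, with sums of 6612 to 15236 under hypoxia and 13554 to 16150 under normoxia. Of 6 fibroblast markers none passed. The lowest log2 value of each measured marker list but that of glomus cells was 3.04 to 4.17. Every array's median over all probes was higher (4.40 to 4.94). Detection of each marker therefore cannot be assumed. The part that dividing or other cells had in the ribosomal gene differences was not tested.

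Promoters are shown for Mrpl23 and Mrps18c, which came first when members were ranked by the smaller of their rises in the 2 populations, for Mrps10, whose difference was the most negative in both, and for Mrpl32, which was added after its motifs had been seen. Each is the 250 bases before the RefSeq gene start on rat assembly GRCr8, written 5′ to 3′ on the gene's strand: Mrpl23 at chr1:207116680-207116929 (plus strand), Mrps18c at chr14:9122907-9123156 (minus strand), Mrps10 at chr9:21122454-21122703 (minus strand) and Mrpl32 at chr17:55260401-55260650 (plus strand). Capitals mark the motifs searched on both strands: GCATGCG (NRF1 core), CCGGAAG (core of ETS factors such as GABPA), AAGATGG (YY1) and CACGTG (E-box).
Mrpl23: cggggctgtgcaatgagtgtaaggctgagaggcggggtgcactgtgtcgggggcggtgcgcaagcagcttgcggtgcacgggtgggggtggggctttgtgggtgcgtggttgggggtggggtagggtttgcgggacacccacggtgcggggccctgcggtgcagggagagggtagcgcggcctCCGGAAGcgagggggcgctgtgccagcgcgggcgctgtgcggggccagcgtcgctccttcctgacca
Mrps18c: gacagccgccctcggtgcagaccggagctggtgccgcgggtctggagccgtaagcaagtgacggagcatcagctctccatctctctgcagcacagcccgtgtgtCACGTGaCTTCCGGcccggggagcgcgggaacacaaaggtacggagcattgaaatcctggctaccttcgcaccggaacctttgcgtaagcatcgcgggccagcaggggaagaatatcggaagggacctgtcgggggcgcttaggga
Mrpl32: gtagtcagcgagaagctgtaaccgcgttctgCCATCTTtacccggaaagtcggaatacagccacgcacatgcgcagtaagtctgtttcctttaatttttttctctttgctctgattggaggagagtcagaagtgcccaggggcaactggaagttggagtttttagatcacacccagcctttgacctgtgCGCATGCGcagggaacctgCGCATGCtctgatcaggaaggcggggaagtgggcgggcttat
Mrps10: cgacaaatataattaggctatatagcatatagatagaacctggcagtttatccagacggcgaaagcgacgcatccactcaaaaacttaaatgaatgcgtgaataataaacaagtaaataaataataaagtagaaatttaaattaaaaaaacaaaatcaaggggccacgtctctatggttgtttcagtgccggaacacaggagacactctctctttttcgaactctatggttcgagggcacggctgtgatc

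The Mrpl23 window held CCGGAAG at position -67 from the start, and 72% of its bases were G or C. Mrps18c held CACGTG at -146 and, next to it on the opposite strand, CCGGAAG at -139. Mrpl32 held GCATGCG at -60, overlapped by a copy on the opposite strand at -61, a further copy on that strand at -42, and AAGATGG on the opposite strand at -219. The Mrps10 window held none of the marked motifs and was 38% G or C, although CCGGAAG lay at the start itself and AAGATGG at 31 bases after it, outside the printed bases. ACGTG, the core of the hypoxia response element, was not marked. The printed Mrps10 bases hold it on the opposite strand, as CACGT, and the CACGTG of Mrps18c contains it.

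Over the members the same motifs, and ACGTG, were counted in the 250 bases before and 50 bases after the start, for the 58 of 72 members that had a RefSeq window. CCGGAAG was found in 20 of the 58 (34.5%), beside 12.9% of 14503 array genes with a window and 9.63% of 27457 genes. AAGATGG was found in 16 (27.6%), beside 7.77% of both. GCATGCG was found in 6 (10.3%), beside 4.81% and 3.7%, and CACGTG in 6 (10.3%), beside 8.17% and 7.08%. ACGTG, the core of the hypoxia response element, which every CACGTG contains, was found in 14 (24.1%), beside 22.6% and 20.9%.

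The same shares were taken for members that rose in both populations and for those that passed in neither. CCGGAAG was present in 33.3% of 30 genes that rose in both and in 35% of 20 genes that passed in neither, AAGATGG in 23.3% and 30%, and ACGTG in 23.3% and 20%. GCATGCG was present in 10% and 5%, and CACGTG in 13.3% and 5%, which are counts of 3 and 4 against 1 and 1 genes. A match describes the letters only.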

How the data were processed

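Per the labels, RNA of 16 sorted samples was hybridised to 1-colour Affymetrix arrays, and the submitters' processing notes name the Transcriptome Analysis Console, with no version or normalization given in the sources used here. The deposited table holds 1 log2 value per probe and array (0.87 to 13.33); the log2 scale was taken from the range of the values, and no scanner files were used here. Of 30429 probes 18511 had 1 gene in the platform annotation, 575 several and 11343 none, and all 72 members matched a RefSeq gene of the same symbol.

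Group means were fitted to all probes and all 16 arrays with limma 3.58.1 (lmFit and eBayes, two-sided, 12 residual degrees of freedom) in R 4.3.3, with Benjamini-Hochberg adjustment over all probes and a threshold of 0.05. The script was tested on simulated data first. Tables were handled with pandas 2.3.3. Members and lists were chosen with earlier results of these data known. Genes named by rule were, per hypoxia comparison, up to 10 members with the largest rise and 10 with the largest fall among those that passed without overlap; in the other comparisons up to 5 each way, or the 3 smallest p where fewer passed; and a set of structural members (Mrpl11 and Mrps22 of it were not analysed here). Up to 3 genes with the smallest p per other list were also named, with a few more chosen for their role. Alternatives were centring, quantile normalization, filters on dim probes, a trended robust fit, array weights, only the arrays compared, a replicate block, the mean over a gene's probes, and leaving out each array.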

Additional observations from a re-analysis of the deposited data

Results flagged for a closer look

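Of 112 sets of 4 arrays, from 28 named members in 4 groups, 4 held an array whose gap to its nearest neighbour, divided by the range of the set, exceeded Dixon's critical value; chance alone flags about 1 in 20. Mrpl30 read 7.75 on the second hypoxic neuroblast array and 8.93 to 9.14 on the others of that group. Mrpl35 read 7.39 on the third hypoxic neuroblast array, against 6.73 to 6.81. The first normoxic neuroblast array gave the other pair of flags, with Mrps18b at 5.22, against 5.94 to 6.04, and Mrps7 at 6.43, against 6.89 to 6.91. That array held the lowest of the 16 signals for 42 of the 72 members.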

How the results depend on the processing

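No alternative turned a named member's direction where it had passed, and no member fell in either hypoxia comparison or passed between populations or in the interaction under any of them. Centring each array lowered the rise count to 26 in glomus cells and the neuroblast median to 0.64. Leaving out 1 array at a time gave 35 to 51 rises in glomus cells and 41 to 61 in neuroblasts, with medians of 0.81 to 0.89 and 0.79 to 1.12. In the settings with those lowest and highest counts, 1929 and 3834 of 30429 probes rose in glomus cells, and 4899 and 4466 in neuroblasts. With only the arrays compared in the fit, 55 members rose in glomus cells and 37 in neuroblasts, beside 3933 and 3000 of 30429 probes. The replicate block gave 45 and 47 rises, beside 2959 and 5881 of 30429 probes. The labels do not say whether replicate numbers pair the samples. Deviations of same-numbered arrays from their group means correlated at -0.10 to 0.20. Differently numbered arrays were not compared, so these values cannot decide whether the samples are paired. Rises held in all 26 settings for 26 members in glomus cells and 31 in neuroblasts. The same count was not taken over all probes, so how unusual these counts are is not known. Of 19 named members in each, 14 and 13 kept their call throughout; Mrpl12 lost its call in glomus cells in 10 settings and Mrps18b its call in neuroblasts in 15. The number of arrays, 4 a group, limits the precision.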
